A study of Mus musculus with 24 samples.

Results

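The regions described here are stretches of the mouse genome that carried 5-hydroxymethylcytosine (5hmC) counts in the table comparing genotypes in unstressed mice and that had no counterpart in the table comparing the same genotypes after prenatal stress. A region belonged if it lay on an autosome, was under 2500 bp wide, lay outside chr6 30 to 60 Mb (the stretch of mouse chromosome 6 around Cntnap2), and shared not even 1 bp with any of the 24982 regions of the stressed genotype table. Of the 38107 regions of the unstressed table, 36478 met the limits on position and width, and 20511 of these (56.2%) had no overlap. They are called unstressed-only regions below, and the 15967 that did overlap are called shared regions. The name describes membership in tables. It does not say that stressed mice lacked 5hmC there, and the counts of stressed libraries at many of these places are given below.

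The study measured 5hmC and RNA in striatum punched from 12 female C57BL/6 mice. Groups were heterozygous (het) for Cntnap2 and prenatally stressed, het and not stressed, wild type and prenatally stressed, and wild type and not stressed, with 3 mice in each. Stress meant that the pregnant dam went through 7 days of variable stress from embryonic day 12.5, and the pups were weaned on postnatal day 18. The age at which tissue was taken, the nature of the Cntnap2 allele and the litter of each mouse are not stated in the labels. Het mice keep 1 wild-type copy of the gene, so they do not model its absence.

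5hmC is made when TET enzymes oxidise 5-methylcytosine, the methylated base of mammalian DNA. It is both a step on the way to demethylation and a lasting mark, is more abundant in brain than in most tissues, builds up as neurons mature, and is enriched over gene bodies and enhancers of active neuronal genes. Cntnap2 encodes Caspr2, a neuronal adhesion protein of the neurexin family that clusters potassium channels along axons. The striatum is made up largely of medium spiny neurons, and in punched tissue a smaller share of one cell type cannot be told apart from less 5hmC per cell.

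The unstressed genotype table held 2045051 to 4331517 counts per library over 3 het and 3 wild-type mice, and 1 very large region on chromosome 2 took 10.4 to 13.3% of them. The stressed genotype table was smaller in regions and in depth, with 1033060 to 1964209 counts per library. RNA of the same labelled mice held all 9 medium spiny neuron markers measured, with a summed level of 3795 to 8372 TPM. Cntnap2 RNA was at 35.97 to 45.97 TPM in unstressed het and 40.3 to 55.1 TPM in unstressed wild-type libraries, so the groups overlapped. The 4 thalamus markers summed to 23.3 to 28.2 TPM in unstressed het and 39.4 to 117 TPM in unstressed wild-type libraries, with no overlap of the sums. Among the 4, Tcf7l2 did overlap, at 1.40 to 2.27 against 1.07 to 5.30 TPM. The 3 choroid plexus markers summed to 2.54 to 841 and 294 to 571 TPM. One of the 3, Kcne2, was listed at 0 in 2 stressed wild-type libraries and above 0 in all unstressed ones. The part of these other cell types in the 5hmC results was not tested. No sequence is printed and no gene is assigned to a region, because a genome and annotation of mm9, the build of the coordinates, were not used here.

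Unstressed-only regions were numerous, narrow and found on every autosome. The count ran from 668 on chromosome 19 to 1584 on chromosome 2, with a median of 993 over the 19 autosomes. Per megabase of the stretch spanned, chromosome 7 held the fewest, at 5.12, and chromosome 19 the most, at 11.6, around a median of 9.24. The stressed genotype table had its lowest density on the same chromosome, 4.81 regions per Mb on chromosome 7, and its highest, 14.2 per Mb, on chromosome 18. The stressed-table density counts regions of any width and, on chromosome 6, those of the window left out, which the unstressed-only density does not. As a share of the regions within the limits, unstressed-only regions made up 52.5% on chromosome 16 and 61.6% on chromosome 7, with 60.1% on chromosome 11 and all others in between. The share thus stayed above 50% on every autosome.

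**Figure D1:**
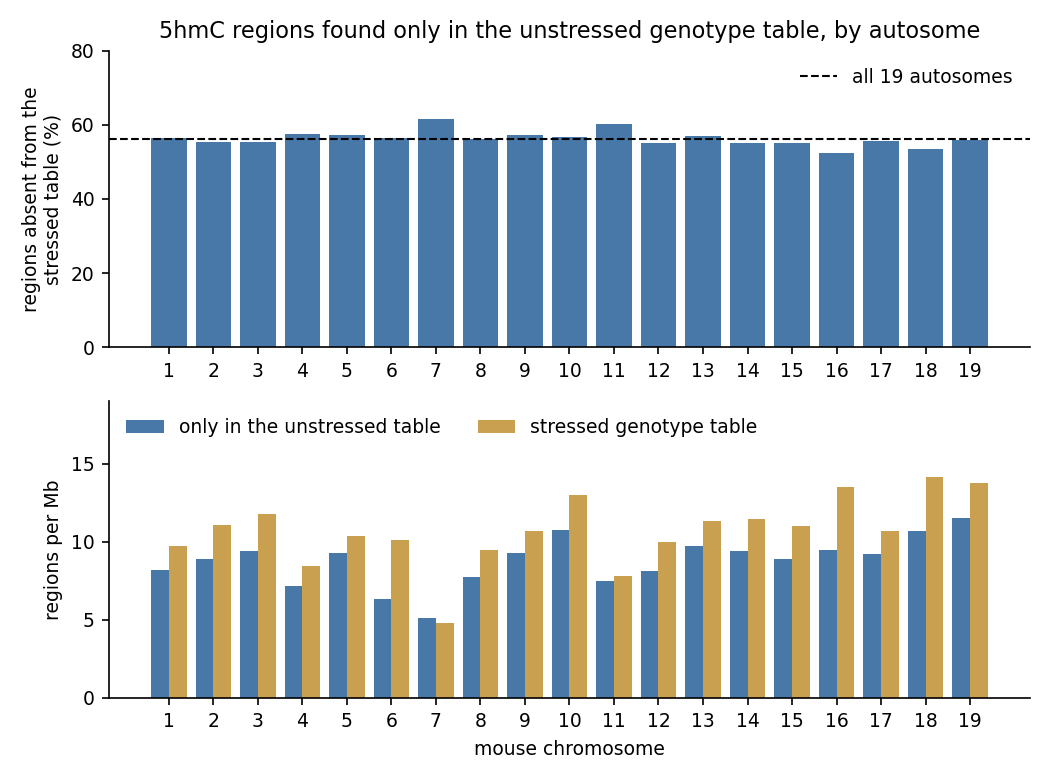
Top, unstressed-only regions as a percentage of the regions within the limits on each autosome, with a dashed line at the share over all autosomes, 56.2%; bottom, unstressed-only regions and all regions of the stressed genotype table per Mb. The shares stay between 52.5% and 61.6%, while the density of unstressed-only regions runs from 5.12 per Mb on chromosome 7 to 11.6 per Mb on chromosome 19.

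Neighbouring unstressed-only regions lay a median of 31771 bp apart (middle 50%: 10280 to 102136 bp), and 24.5% of the gaps were at most 10 kb. Many were close to a region that the stressed table did hold: 1761 (8.59%) had one within 1 kb and 45.5% within 10 kb, with a median gap of 12100 bp. A further 10.04% were over 100 kb from any stressed-table region. These isolated regions had a median level of 15.5 CPM per kb, against 16.6 for those within 1 kb. The level is a region's count divided by its width in kb and scaled to 1000000 counts per library in the table (CPM), averaged over the 6 libraries.

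Cut into windows of 1 Mb, the densest stretch was chr2 59 to 60 Mb, where 64 of 116 regions within the limits were unstressed-only. It was followed by chr12 54 to 55 Mb with 50 of 96 and chr5 132 to 133 Mb with 48 of 93. In each of these windows the unstressed-only share was near the share over all autosomes, so the windows were dense in 5hmC regions of both kinds. Het libraries were higher at 31 of the 64 on chromosome 2, at 22 of the 50 on chromosome 12 and at 29 of the 48 on chromosome 5. The window median log2 difference, het minus wild type, was -0.01, -0.01 and 0.12.

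Unstressed-only regions were the narrower ones. Their median width was 1100 bp (middle 50%: 1032 to 1300 bp), against 1194 bp for shared regions. Among regions of 1001 to 1050 bp, 69.8% were unstressed-only, and the share fell with every step of width to 29.6% at 2001 to 2499 bp. A wide region has more bases at which to meet another one, and the part of this in the slope was not tested. The widest unstressed-only region measured 2499 bp and lay on chromosome 18, with 74, 115 and 93 counts in het and 72, 136 and 110 in wild-type libraries. Just outside the limit, chr8:63721600-63724099 measured 2500 bp and had 99, 206 and 149 counts in het and 80, 257 and 136 in wild-type libraries. The widest region inside and the narrowest outside both had counts in all 6 libraries in which neither genotype stood above the other.

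At the edges of the chromosome 6 window the counts of both genotypes overlapped as well. The last unstressed-only region before it was chr6:29816192-29817199, with 32, 46 and 37 counts in het and 25, 52 and 47 in wild-type libraries. The first one after it was chr6:61112918-61114097, with 28, 34 and 35 against 17, 50 and 34. Within the window, 294 regions under the width limit had no overlap with the stressed table and were left out.

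The share of unstressed-only regions was higher at both ends of the range of levels than in the middle. With the regions within the limits split by level into 10 equal classes, the lowest class ran from 6.79 to 12.6 CPM per kb. In it, 70.9% of the regions were unstressed-only. The share was 50.4% in class 5 and 60.3% in the highest class. Levels of shared regions reached 3491 CPM per kb, and those of unstressed-only regions 51.7.

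In the middle of the distribution the levels were close. Unstressed-only regions had a median of 16.4 CPM per kb (middle 50%: 14.0 to 19.3) and shared regions 16.8. By library, the unstressed-only median was 16.3, 17.1 and 16.4 in het replicates 1, 2 and 3 and 15.8, 16.7 and 16.0 in the wild-type replicates, and the shared median lay between 16.6 and 17.0 in all 6. Unstressed-only regions were lower in 4 libraries, equal in 1 and higher in 1. The mean difference was -0.04 ± 0.04 on the log2 scale (SD, n = 6 libraries), a ratio of 0.975, with p = 0.125 in a two-sided exact sign-flip permutation test that can reach 0.03125. That difference was no larger than the spread between libraries. Without division by width the difference was -0.15, lower in all 6 libraries (p = 0.03125, exact sign-flip permutation test), and with means in place of medians it was -0.06 (p = 0.03125, same test). Both p-values are the smallest the test can give. Unstressed-only regions were also narrower, with a median of 1100 bp against 1194 bp, so the value without division by width holds width as well as level. Unstressed-only regions held 40.5 to 43.9% of a library's counts, with a median of 38 to 85 counts per region and library.

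**Figure D2:**
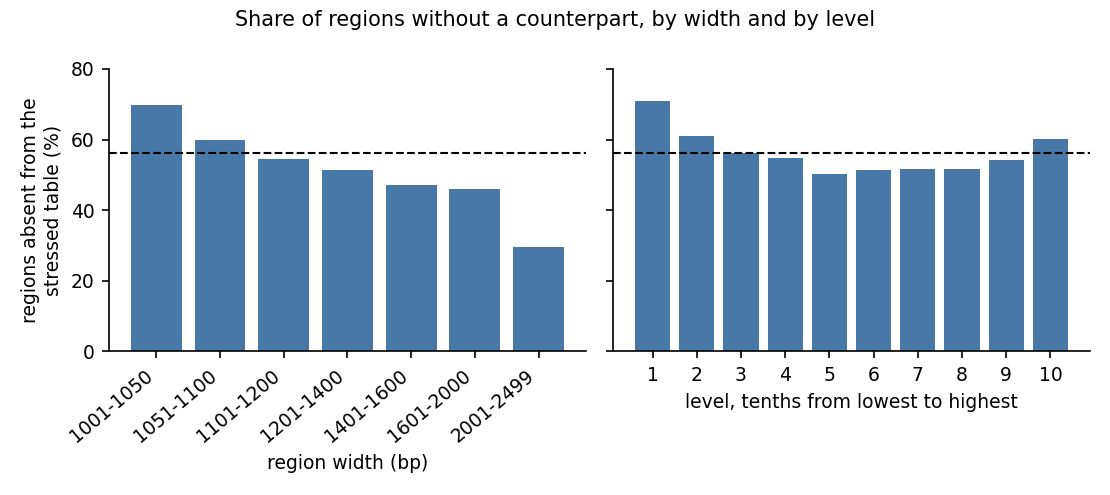
Share of regions within the limits that were unstressed-only, by width class and by class of level, with a dashed line at the share over all classes, 56.2%. The share falls from 69.8% to 29.6% over the width classes, and over the 10 classes of level it is 70.9% in the lowest, 50.4% in class 5 and 60.3% in the highest.

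The strongest unstressed-only regions were well covered in both genotypes. The highest level was at chr1:90159099-90160164, with 108, 217 and 147 counts in het and 84, 269 and 186 in wild-type libraries (51.7 CPM per kb). A second one of the 4 strongest, chr1:90182100-90183199 (45.1), lay on the same chromosome with 124, 187 and 138 counts in het and 78, 218 and 142 in wild-type libraries. The others were chr11:3041799-3042799 (50.7) and chr2:181026399-181027453 (50.6). At each of these 4 the scaled counts of het and wild-type libraries overlapped.

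The weakest was chr16:47535999-47537045, at 6.79 CPM per kb, with 24, 18 and 26 counts in het and 11, 30 and 13 in wild-type libraries. The other weakest were chr8:101551331-101552599 (7.00), chr11:50257769-50259044 (7.05) and chr1:45943311-45944378 (7.17). The 4 weakest each had 11 counts or more in every library, and the groups overlapped at chr16:47535999-47537045.

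Where an unstressed-only region appeared in the other 3 tables followed a strict pattern. Those tables compare stressed with unstressed het mice, stressed with unstressed wild-type mice, and stressed het with unstressed wild-type mice. Of the 20511, 8423 (41.1%) overlapped a region of the first table alone, 7965 (38.8%) overlapped regions of both tables that include unstressed wild-type libraries and none of the first, and 4123 (20.1%) overlapped regions of all 3. Every other combination held 0. They are called het-table, wild-type-table and all-table regions below. Each of the 3 tables includes 1 of the unstressed groups, and the classes followed which group that was. Shared regions split otherwise: 71.0% overlapped regions of all 3 tables, and 11.6%, 6.30% and 11.1% overlapped all but 1 of them. No source used here says how the authors chose the regions of each table. If each table joined region lists of its groups, the rule for unstressed-only regions fixed the classes and the empty combinations in advance. If the choice used the counts of a table's libraries, the direction of the genotype difference within the first pair of classes follows from it. A small difference in all-table regions could follow in the same way. The differences of all 3 classes are thus given as descriptions.

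All-table regions were wider and stronger, with a median width of 1246 bp and a level of 17.8, than het-table regions (1070 bp, 16.6) and wild-type-table regions (1088 bp, 15.3). Both of the narrower classes lay on every autosome. On chromosome 3 there were 610 het-table and 547 wild-type-table regions, on chromosome 1 614 of each, and on chromosome 2 605 and 645.

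The genotype comparison asks whether being het for Cntnap2 goes with a different 5hmC level at these regions in unstressed mice. No unstressed-only region passed the test: 0 of 20511 were called by edgeR's quasi-likelihood test at a Benjamini-Hochberg adjusted p under 0.05, where 1 of 38107 regions of the whole table (0.00262%) was called, lower in het mice and inside the chromosome 6 window. DESeq2 also called 0. With the replicate number added to the edgeR fit as a block, 10 were called, where 32 of the 38107 regions of the table were. The labels do not say whether replicate numbers pair the mice. At an unadjusted p under 0.05, edgeR gave 942 higher and 828 lower in het mice, 8.63% of the unstressed-only regions. Over all regions of the table, 7.51% reached it, 3.64% higher and 3.87% lower. At the same threshold DESeq2 gave 471 unstressed-only regions (2.30%) and 1.98% of the table. Het and wild-type libraries did not overlap at 1627 regions that were higher and 1424 that were lower, 14.9% of the unstressed-only regions. Over the table it was 13.7%, with 6.69% higher and 6.99% lower. The unstressed-only shares were near those of the whole table, which these regions are part of. Among shared regions, 6.06% reached the edgeR threshold and the libraries did not overlap at 12.1%. Most unstressed-only regions were het-table or wild-type-table regions, which may have entered through the genotype where they are high. Nothing is thus read from these shares.

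The log2 difference between het and wild-type mice was centred close to 0. Its median was 0.01, with 52.1% of the regions above 0, against a median of -0.00073 and 49.9% above 0 over the table. The middle 90% ran from -0.36 to 0.35 and the extremes were -0.93 and 0.88. The median standard error was 0.18, and the 95% interval reached a median of 0.35 to either side, or 1.28-fold. In 20300 regions (99.0%) the whole interval lay within a 2-fold change in either direction. A change beyond 2-fold thus lay outside the interval of most of these regions. A change below 1.28-fold lay inside the interval of a typical unchanged one and was not detectable with 3 mice a group. The intervals are not adjusted for the number of regions, so 1.28-fold is not the smallest change the test could call. At chr10:60470500-60471799 a 1.84-fold difference had an adjusted p of 0.0927 (edgeR, Benjamini-Hochberg).

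The autosomes were alike in direction to within a small range. The median log2 difference per chromosome lay between -0.02 on chromosome 16 and 0.03 on chromosome 11, and the share of regions higher in het mice between 47.2% and 56.2% on the same chromosomes. At an unadjusted p under 0.05 the share ran from 6.63% on chromosome 11 to 10.9% on chromosome 6.

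On each chromosome described, the unstressed-only region of smallest p had scaled counts that did not overlap between the groups and did not pass the adjusted test (adjusted p = 0.598 at each, edgeR with Benjamini-Hochberg). On chromosome 7, the sparsest, it was chr7:137613604-137615600, with 54, 80 and 57 counts in het and 60, 164 and 99 in wild-type libraries (log2 difference -0.53 ± 0.15). On chromosome 19, the densest, it was chr19:43613567-43614640, with 20, 38 and 26 against 33, 75 and 43 (-0.63 ± 0.22). Both were lower in het mice. On chromosome 16 it was chr16:38106699-38107835, with 61, 79 and 82 against 32, 91 and 56 (0.54 ± 0.17), and on chromosome 11 chr11:72512815-72513835, with 24, 38 and 25 against 40, 66 and 61 (-0.74 ± 0.21). On chromosome 6, outside the window left out, chr6:28528715-28530221 had 36, 65 and 50 against 59, 109 and 93 (-0.59 ± 0.16). On chromosome 2, chr2:165609399-165610699 had 77, 150 and 106 against 43, 132 and 91 (0.54 ± 0.14), and it was the one all-table region among these.

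The near-zero centre was the sum of classes that lay on opposite sides. Het-table regions had a median of 0.15, with 83.2% higher in het mice. Wild-type-table regions had a median of -0.15, with 18.5% higher in het mice. All-table regions had a median of 0.01, with 53.5% higher. An unadjusted p under 0.05 (edgeR) was reached by 3.40% of them, 9.96% of het-table and 9.93% of wild-type-table regions, against 7.51% of the table. These shares may follow from how the classes were sorted, so nothing is read from them. The per-library medians also lay on opposite sides. Het-table regions had 17.5 to 17.9 CPM per kb in het and 15.1 to 16.1 in wild-type libraries. Wild-type-table regions had 14.1 to 15.5 in het and 15.9 to 16.4 in wild-type libraries.

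**Figure D3:**
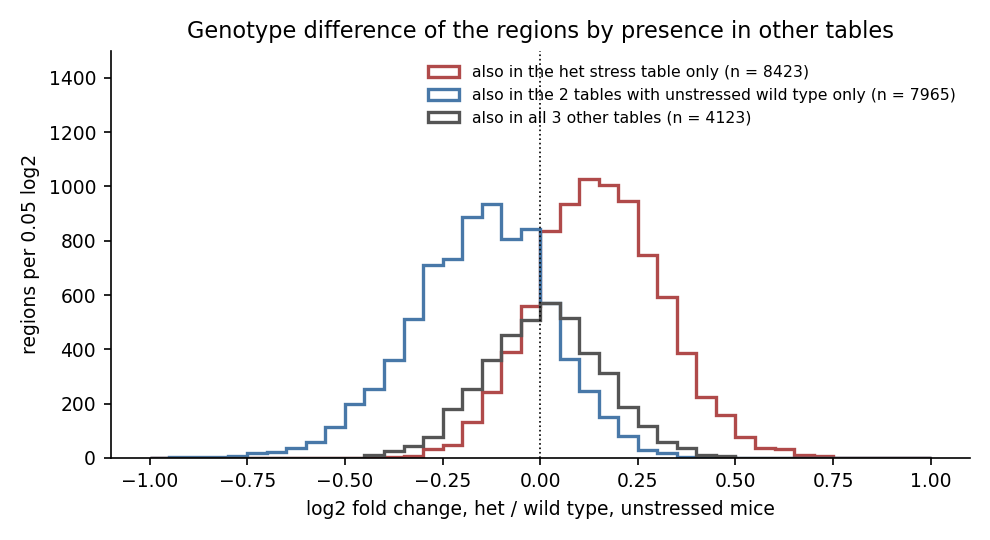
Distribution of the log2 difference, het minus wild type, in unstressed mice for het-table, wild-type-table and all-table regions (number of regions per bin of log2 difference). The medians are 0.15, -0.15 and 0.01.

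Among the regions of smallest p, the first was chr10:60470500-60471799. It had 51, 78 and 75 counts in het replicates 1, 2 and 3 and 28, 54 and 46 in wild-type replicates 1, 2 and 3. Scaled by TMM to CPM, that was 24.3, 22.9 and 27.2 against 13.9, 12.4 and 14.4, so every het library lay above every wild-type library. The log2 difference was 0.88 ± 0.18 (SE), with an adjusted p of 0.0927 by edgeR's quasi-likelihood test with Benjamini-Hochberg adjustment. With the replicate number as a block the adjusted p was 0.00134 (edgeR, Benjamini-Hochberg).

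The next regions higher in het mice had smaller differences. At chr14:115263400-115264400 the scaled counts were 22.4, 26.4 and 22.5 CPM in het and 13.4, 13.1 and 16.6 in wild-type libraries, a log2 difference of 0.74 ± 0.18. At chr8:120452500-120454099 they were 34.3, 39.3 and 34.8 against 17.9, 28.7 and 20.7, a difference of 0.63 ± 0.15. In both, the groups did not overlap, and at the chromosome 8 region wild-type replicate 2 was higher than the other wild-type libraries. Without that library the difference was 0.90 and the adjusted p was 0.0322 (edgeR, Benjamini-Hochberg). The remaining 3 of this direction were chr10:114278820-114280100 (0.69), chr1:128827000-128828023 (0.66) and chr15:95650900-95652797 (0.49), again with no overlap between the groups.

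On the lower side, chr5:50358700-50359799 had the smallest p. Its scaled counts were 22.4, 22.0 and 22.5 CPM in het and 34.3, 30.8 and 37.3 in wild-type libraries. The het libraries were nearly equal and all lay below the wild-type libraries. The log2 difference was -0.60 ± 0.15 and the adjusted p 0.588 (edgeR, Benjamini-Hochberg). At chr14:94253938-94255038 the values were 8.57, 12.6 and 10.9 against 19.9, 17.5 and 19.4, a difference of -0.77 ± 0.20. The others were chr5:90763482-90764528 (-0.77), chr4:86924500-86926199 (-0.71), chr15:35351382-35352899 (-0.68) and chr10:109280801-109283000 (-0.64). At chr4:86924500-86926199 the het libraries spread the most, with 9.52, 15.8 and 17.1 against 31.3, 19.5 and 23.8 CPM. All 6 named regions that were higher in het mice were het-table regions, and all 6 that were lower were wild-type-table regions. They may thus have been listed through the genotype where they are high, and their differences are given as descriptions.

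**Figure D4:**
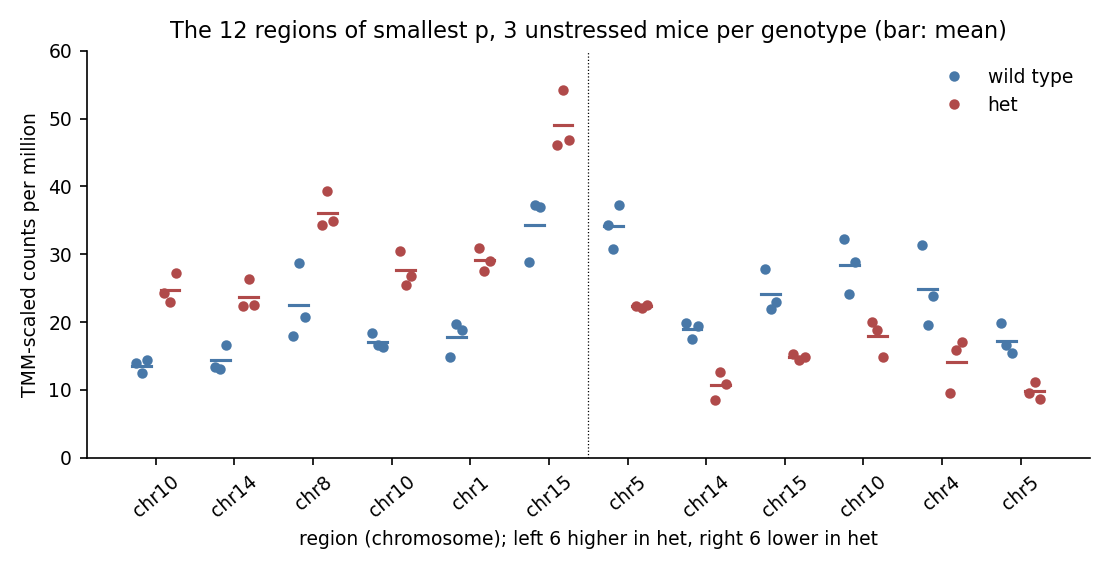
TMM-scaled CPM in each unstressed library (points, 3 per genotype, bars at the mean) for the 6 unstressed-only regions of smallest p in each direction. Those higher in het mice are at the left and those lower at the right, labelled by chromosome and in order of p. The het and wild-type points do not overlap in any of the 12, and the adjusted p is 0.0927 at the first and 0.516 or more at the other 11 (edgeR).

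The remaining tables show what stressed libraries held at the same places. They share the unstressed libraries with the genotype comparison, and absence from the stressed genotype table may itself rest on the counts of the stressed libraries, so a lower stressed level is described and nothing is read from it. In het mice, 12554 regions of the stress table lay on unstressed-only regions. Of these, 9158 (72.9%) were lower after stress, where 50.5% of the table's regions were, and the median log2 difference was -0.12. The median level was 19.1, 19.004 and 17.5 CPM per kb in the stressed het libraries and 20.6, 21.5 and 20.8 in the unstressed ones, with no overlap. At shared regions of the same table it was 19.4 to 20.1 in stressed and 19.8 to 19.99 in unstressed libraries. In RNA of the het mice, the 3 cortical excitatory neuron markers summed to 110 to 152 TPM after stress and 11.3 to 82.2 TPM without, and the 2 astrocyte markers to 89.3 to 105 and 45.4 to 80.1 TPM. Neither sum overlapped between the groups, though Neurod6 of the cortical list did (9.13 to 11.4 against 1.09 to 9.18 TPM). No gene of either list was at 0, and their part in the 5hmC difference was not tested.

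In wild-type mice, 12093 regions lay on unstressed-only regions, of which 9007 (74.5%) were lower after stress, where 50.6% of the table's regions were. Their median difference was also -0.12. The median level was 16.5, 17.7 and 17.6 in stressed wild-type libraries and 18.5, 19.7 and 18.8 in unstressed ones. In RNA of the wild-type mice, the 3 choroid plexus markers summed to 1.86 to 11.6 TPM after stress and 294 to 571 TPM without, with Kcne2 at 0 in 2 stressed libraries. The 4 thalamus markers summed to 22.9 to 30.5 TPM after stress and 39.4 to 117 TPM without, and none was at 0. Neither sum overlapped between the groups. Of the thalamus genes, Ramp3 did not overlap (8.51 to 19.8 against 24.6 to 51.4 TPM), while Prkcd, Tcf7l2 and Slc17a6 each did. The part of these cell types in the 5hmC difference was not tested. The ratio of stressed to unstressed was 0.922 at the median region in both genotypes, and the stressed libraries were far from empty: a median of 28 to 54 counts per region was found in the stressed het and of 31 to 52 in the stressed wild-type libraries. Stressed libraries were also shallower, with 1276254 to 2462872 counts against 1821714 to 2858355 in het and 1614413 to 2488247 against 1826270 to 3813327 in wild-type mice. The counts used for scaling the level include the very large region on chromosome 2. It took 14.5 to 17.9% in stressed and 12.1 to 13.9% in unstressed het libraries. In wild-type libraries it took 12.6 to 18.6% and 13.2 to 14.9%. The part of depth and of this region in the lower level was not tested.

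**Figure D5:**
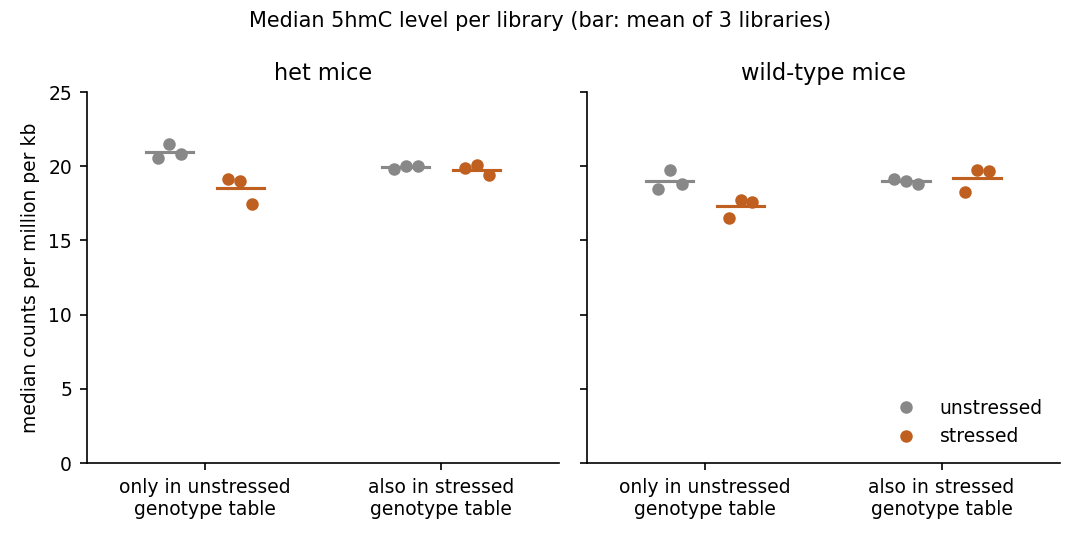
Median level, in CPM per kb, of each library (points, bars at the mean of 3) at regions on unstressed-only and on shared regions, in the stress tables of het and wild-type mice. Stressed libraries lie below unstressed ones at unstressed-only regions (17.5 to 19.1 against 20.6 to 21.5 in het mice), while at shared regions they overlap.

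In the fit of the whole het stress table, 1 region on an unstressed-only region was called lower after stress, chr11:97696925-97697931, in a table where 0.00311% of the regions were called lower. As the unstressed-only regions were chosen by their absence from a table of the same stressed libraries, this call is given as a description and supports nothing. The region had 33, 9 and 14 counts in stressed and 45, 83 and 52 in unstressed het libraries, or 13.4, 7.14 and 9.08 against 24.5, 28.3 and 21.6 CPM after TMM scaling. The 3 stressed libraries lay below the 3 unstressed ones. The log2 difference was -1.24 ± 0.22 (SE). The call was lost without stressed het replicate 2, stressed het replicate 3 or unstressed het replicate 2, and DESeq2 did not make it. The next were chr16:87706900-87708199, with 22.0, 19.8 and 16.9 against 34.2, 39.9 and 30.8 CPM, and chr14:121701400-121702999, with 34.6, 29.4 and 28.6 against 41.3, 62.1 and 45.7 CPM. Neither was called. Of those higher after stress, the smallest p was at chr9:86566025-86567037, with 31.3, 38.1 and 24.7 CPM in stressed and 15.2, 24.2 and 20.4 CPM in unstressed het libraries and a log2 difference of 0.60 ± 0.18.

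In wild-type mice edgeR and DESeq2 called 0 regions on unstressed-only regions and 0 in the whole table, with 1112 at an unadjusted p under 0.05 by edgeR (9.20%, against 8.85% of the table) and 364 by DESeq2 (3.01%, against 3.13% of the table). The smallest p was at chr5:11477208-11478225, with 7, 22 and 16 counts in stressed and 47, 52 and 48 in unstressed wild-type libraries. Scaled, that was 4.61, 10.96 and 6.29 against 25.8, 13.4 and 16.7 CPM, a log2 difference of -1.23 ± 0.27. The stressed libraries lay below the unstressed ones, though stressed replicate 2 came close to unstressed replicate 2.

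Stressed het against unstressed wild-type mice gave 12093 regions on unstressed-only regions, with a median log2 difference of -0.10 and 71.5% lower, where 49.8% of the table's regions were lower. EdgeR and DESeq2 called 0 of them, where edgeR called 0.00947% of the table, with 809 at an unadjusted p under 0.05 by edgeR (6.69%, against 7.15% of the table) and 176 by DESeq2 (1.46%, against 1.68% of the table). The smallest p was at chr5:97454500-97455500, with 16.9, 15.8 and 18.7 CPM in stressed het and 26.0, 32.8 and 31.9 in unstressed wild-type libraries.

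The regions with the clearest genotype difference can be followed into stressed het mice through the het stress table. They were chosen on the values of the same unstressed libraries, so a lower stressed level is described and nothing is read from it. At chr10:60470500-60471799 stressed het libraries had 30.9, 28.6 and 16.9 CPM and unstressed het libraries 27.7, 26.6 and 31.2 in that table, a log2 difference of -0.13 ± 0.18. The groups overlapped, and 2 of the 3 stressed het libraries lay within the range of the unstressed ones, although the stressed genotype table held no region there. At chr14:115263400-115264400 the values were 19.1, 12.7 and 16.9 against 25.6, 30.7 and 25.8, a difference of -0.71 ± 0.19 with no overlap. At chr15:95650900-95652797 they were 39.5, 30.9 and 44.1 against 52.7, 63.1 and 53.6 (-0.56 ± 0.14). At the other named regions higher in het mice the difference was -0.40 to -0.33.

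The regions lower in het mice can be followed through the wild-type stress table. These too were chosen on the values of the same unstressed libraries, and their differences are descriptions only. At chr5:50358700-50359799 it gave 33.6, 29.9 and 26.7 CPM in stressed and 37.9, 34.5 and 41.5 in unstressed wild-type libraries (-0.35 ± 0.15). At chr10:109280801-109283000 the groups overlapped, with 29.0, 29.9 and 26.3 against 35.7, 27.1 and 32.1. At the other named regions lower in het mice the difference was -0.55 to -0.30. Stressed het against unstressed wild-type libraries differed by 0.12 at chr10:109280801-109283000, -0.12 at chr4:86924500-86926199 and -0.16 at chr14:94253938-94255038. At the remaining named regions lower in het mice that difference was -0.46 to -0.39.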

How the data were processed

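DNA enriched for 5hmC and RNA came from the same punches, per the labels' protocols. The submitters' processing notes name Bowtie 0.12.7 and mm9 for the 5hmC reads. The authors deposited counts of reads, as whole numbers, for each region in each library, in 5 tables. No source used here says how regions were chosen. The authors deposited RNA as TPM from RSEM, per the file headers; it served only to check labels and markers, and the RNA of unstressed het replicate 1 carries another animal number than its label.

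Each table was fitted alone with edgeR 4.0.16 in R 4.3.3 (TMM, no filter, robust glmQLFit and glmQLFTest, group only), p-values were adjusted by Benjamini-Hochberg over all its regions, two-sided, and called at 0.05. DESeq2 1.42.0 was an alternative. Intervals are 95%. The fit was tested on simulated data. Tables were joined at 1 bp of overlap, with starts and ends taken as 1-based. Replicates are separate mice that may share litters, so a p-value covers only the spread between them. Replicate counts differed by more than counting noise.

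Regions named are the 6 of smallest p in each direction, the 4 of highest and of lowest level, those nearest the limits, that of smallest p on each chromosome described, the 3 densest windows and, in the stress tables, some of the 3 of smallest p in each direction. The regions, lists and tests were chosen with earlier results of these data known.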

Additional observations from a re-analysis of the deposited data

How the results depend on the processing

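The number of unstressed-only regions was 17386 to 20948 under other limits on overlap, width and chromosome 6. Genotype calls by edgeR among them were 0 under DESeq2 size factors, total-count scaling and filterByExpr, 1 with chromosome 6 kept, and 0 to 2 with each library left out (2 without wild-type unstressed replicate 2). Over the whole table, 1 call became 0 with DESeq2 and 0 to 7 with a library left out. Calls on unstressed-only regions after stress in het mice were 7 with total-count scaling, 0 with DESeq2 and 0 to 29 with a library left out; 0 came without stressed replicates 2 or 3 or unstressed replicate 2, 20 without stressed replicate 1, and 29 and 19 without unstressed replicates 1 and 3. The ranges were 0 to 2 in wild-type mice (2 without unstressed replicate 1) and 0 to 7 for stressed het against unstressed wild-type mice (7 and 1 without unstressed wild-type replicates 1 and 2). The level difference was -0.15 per region and -0.0634 with means (both p = 0.03125, exact sign-flip permutation test), and -0.05 to -0.02 with a library left out (p 0.125 to 0.25). The level difference per region is not divided by width and so holds width as well as level. The cause of these changes was not tested.

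The labels do not say whether replicate numbers pair the mice, and the main fits did not pair them. Deviations of same-numbered libraries correlated at 0.02 to 0.18 in the genotype table, where 5 of 6 libraries correlated best with their own number. In the het stress table they correlated at -0.07 to -0.05, and 0 of 6 libraries did so. These values are a hint from the data only. A replicate block gave 32 calls in the genotype table, 10 of them unstressed-only (9 higher and 1 lower in het mice), and 7 on unstressed-only regions after stress in het mice.

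The median genotype difference of unstressed-only regions was -0.0043 to 0.029 with a library left out, so its sign rested on unstressed het replicate 2. Median counts of 38 to 85 per region and library limit what can be detected.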
